A study of Mus musculus with 8 samples.

Results

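The genes described here carry or restrain signals from the leptin receptor and gp130 to the transcription factor STAT3, or are relatives of such genes. They were measured in livers of obese db/db male mice that lack a working leptin receptor. They were 9 genes picked by symbol from the 21532 genes of the table: Lepr, Leprot, Leprotl1, Jak1, Jak2, Stat3, Socs3, Il6ra and Il6st. All 9 were found once in the table, and all 9 had a mean normalized read count of at least 10, the minimum for testing, which 15989 genes passed. Frozen livers of 4 mice treated with control and 4 mice treated with AF1 peptide were sequenced as RNA, with 1 library per mouse. AF1 peptide is a short peptide designed from the activation function 1 region of estrogen receptor alpha for binding to IRS1, the insulin receptor substrate. All 8 mice carried the db/db genotype, were bought from The Jackson Laboratory, and were 8 weeks old when retro-orbital injections of 5 mg/kg began. They had 2 injections per week over 5 weeks, and the study states a C57B/6J background for all of its mice. The db mutation spoils the long, signalling form of the receptor in every cell of the body, in the control mice as well. No liver with a working leptin receptor was analysed here.

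Leptin is the hormone of fat tissue that reports energy stores to the brain. Its receptor has no enzyme activity of its own and signals through the kinase JAK2, which phosphorylates the receptor and then STAT3. The liver reaches the same transcription factor by another road, in which interleukin 6 binds IL6RA, the complex engages gp130 (the product of Il6st), JAK kinases phosphorylate STAT3, and hepatocytes make acute phase proteins. SOCS3 is a product of STAT3 target transcription that binds both gp130 and the leptin receptor and turns them off.

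The comparison asked whether mRNA levels of these genes differed with AF1 peptide treatment. None of the 9 genes was called higher or lower with AF1 peptide, where a call is an unadjusted p value under 0.05 in limma with more than 1.3-fold change (0 of 9 genes). Among all tested genes, 1.79% were called higher and 1.9% lower. No gene of the 9 had an unadjusted p value under 0.05 in limma, edgeR or DESeq2 (0 genes in each), where 6.19% of all tested genes had one in limma. In none of the 9 genes were the control and the AF1 peptide mice free of overlap (0 genes), which held for 3.9% of all tested genes. The lowest p value of the 9 belonged to Leprot, at 0.789-fold of the control level with an interval of 0.619 to 1.01. Intervals given here are 95% intervals from limma. Over the 9 genes they ran from 0.616-fold to 1.81-fold, and the intervals of Leprotl1, Jak1, Jak2 and Il6st stayed within 1.3-fold in both directions. Of all 15989 genes, limma and edgeR gave 0 a Benjamini-Hochberg adjusted p value under 0.05 and DESeq2 gave 3, none of them among the 9.

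**Figure D1:**
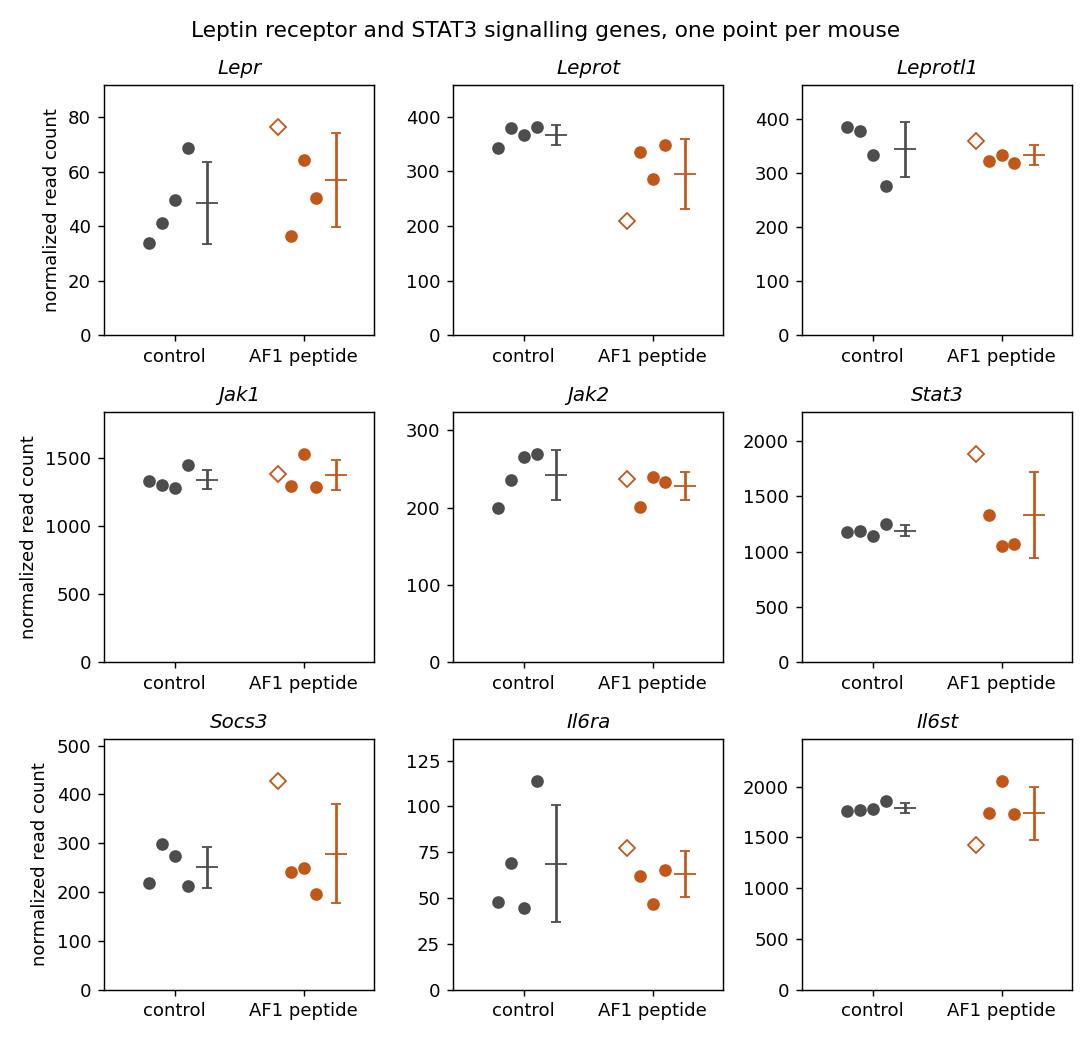
Normalized read count (vertical axes, starting at 0) of the 9 genes in each mouse, control in gray and AF1 peptide in orange, with replicates 1 to 4 from left to right and the mean ± SD (n = 4) beside the points. The open diamond is AF1 peptide replicate 1, which was highest of the 8 mice for Lepr, Stat3 and Socs3 and lowest for Leprot and Il6st, and the groups overlapped in all 9 panels.

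One library stood apart. AF1 peptide replicate 1 was the highest or the lowest of the 8 mice in 49.3% of all tested genes, against 12.7 to 33.4% for the other 7 mice. Depth was 35260283 to 45117528 reads in control and 23031880 to 43978158 reads in AF1 peptide mice, with the lowest value in AF1 peptide replicate 2. The share of reads from 13 mitochondrial genes was 20.8% in AF1 peptide replicate 1, 34.3 to 37.8% in the other AF1 peptide mice and 22.4 to 34.3% in control mice. Hepatocyte markers such as albumin were abundant in every library. Their summed normalized count was 1545612 in AF1 peptide replicate 1, and was carried mainly by albumin, against 2062100 to 2480528 in the other AF1 peptide mice and 2373689 to 2467841 in control mice. Of the 5 markers, 4 were lowest of all mice in that library, while Cps1, the first enzyme of the urea cycle, was highest at 34576 against 5979 to 13727 in the others. The 8 markers of Kupffer cells and macrophages summed to 2545 in AF1 peptide replicate 1, where 7 of them were lowest of all mice, against 6288 to 6639 in the other AF1 peptide mice and 5536 to 6968 in control mice. Stellate cell markers summed to 4150 there, 4889 to 8618 in the other AF1 peptide mice and 5541 to 7816 in control mice, and sinusoidal endothelial markers to 7277, 7648 to 9591 and 7500 to 8478. In AF1 peptide replicate 1, 5 of 8 stellate cell markers were lowest of all mice. Of 8 sinusoidal endothelial markers, 3 were lowest and 1 was highest there. No marker of the lists that was found in the table was at 0 in every mouse. In RNA of whole liver, fewer cells of a type and less RNA per cell cannot be told apart. The part of these shifts in the values of the 9 genes was not tested, and the log2 fold changes of the 9 genes are given with and without that library.

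Lepr encodes the leptin receptor itself. Its normalized read count was 33.8, 41.4, 49.7 and 68.7 in the control mice and 76.5, 36.5, 64.3 and 50.5 in AF1 peptide mice, in the order of replicates 1 to 4. The highest value of all was in AF1 peptide replicate 1 and the lowest in control replicate 1, with 1 AF1 peptide mouse below 3 of the 4 control mice. The mean was 48.4 ± 15.0 without and 57.0 ± 17.3 with AF1 peptide (SD, n = 4 each). The log2 fold change was 0.23 (SE 0.28, limma adjusted p = 0.871), and 0.07 without AF1 peptide replicate 1. Without control replicate 4 it was 0.41 and without AF1 peptide replicate 2 it was 0.42 (limma adjusted p = 0.896 and 0.851). Each value rested on 20 to 82 reads. Counting of reads alone gives a coefficient of variation of 13.4% at that depth, while the mice varied by 31.0% in control and 30.3% in AF1 peptide livers. The annotation (GENCODE M21) lists 7 transcripts of Lepr on chromosome 4. A count per gene sums them, so that the long form spoiled by the db mutation and the short forms are not separated here.

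Leprot lies beside Lepr on the same strand of chromosome 4 and encodes a small membrane protein of endosomes that limits the amount of leptin receptor on the cell surface. Its normalized read count was 342, 379, 366 and 382 in control mice and 209, 336, 286 and 349 in AF1 peptide mice. The control mice lay close together, with a coefficient of variation of 4.95%, while the AF1 peptide mice varied by 21.5%. A single mouse made the groups overlap, since AF1 peptide replicate 4 was above control replicate 1. The mean went from 367 ± 18.2 to 295 ± 63.4 (SD, n = 4 each), a log2 fold change of -0.34 (SE 0.16). The unadjusted p value in limma was 0.0549 and the Benjamini-Hochberg adjusted p value was 0.763, and 6.82% of all tested genes had a smaller p value. edgeR gave 0.0632 and DESeq2 0.0708. The value of AF1 peptide replicate 1 was 0.569 of the control mean, and without it the log2 fold change was -0.19 (limma adjusted p = 0.595). Leprot was called in 2 of the 8 fits that left out 1 mouse. These were the fits without AF1 peptide replicate 2, at -0.41 with an unadjusted p value of 0.037 in limma (0.851 adjusted), and without AF1 peptide replicate 4, at -0.43 with an unadjusted p value of 0.0266 (0.646 adjusted). Rescaled to equal totals, Leprot was called at -0.43, with an unadjusted p value of 0.0194 in limma (0.867 adjusted), under a scaling that gave 122 genes higher and 604 lower in place of 286 and 304, or 16.8% of the calls higher in place of 48.5%.

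The balance of these neighbouring genes differed mostly in that same mouse. As a percent of the normalized count of Leprot, Lepr was at 9.88, 10.9, 13.6 and 18.0% in control mice and at 36.6, 10.9, 22.5 and 14.5% in AF1 peptide mice. Means were 13.1 ± 3.62% and 21.1 ± 11.4% (SD, n = 4 each), and 15.9 ± 5.94% (SD, n = 3) without AF1 peptide replicate 1. That mouse was above all the others. AF1 peptide replicate 3 was also above all control mice, while AF1 peptide replicates 2 and 4 lay within the control range. The ratio is a description and was not tested. In the annotation no exon of either gene overlapped an exon of the other.

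Leprotl1, on chromosome 8, encodes a relative of the Leprot protein. Its normalized read count was 386, 378, 334 and 276 in control mice and 358, 321, 333 and 318 in AF1 peptide mice, where all AF1 peptide values lay inside the control range. The log2 fold change was -0.04 (SE 0.13, limma adjusted p = 0.967), from 344 ± 50.3 to 333 ± 18.3 (SD, n = 4 each), and -0.07 without AF1 peptide replicate 1. The low Leprot value of AF1 peptide replicate 1 had no counterpart in Leprotl1, which was 358 in that mouse.

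**Figure D2:**
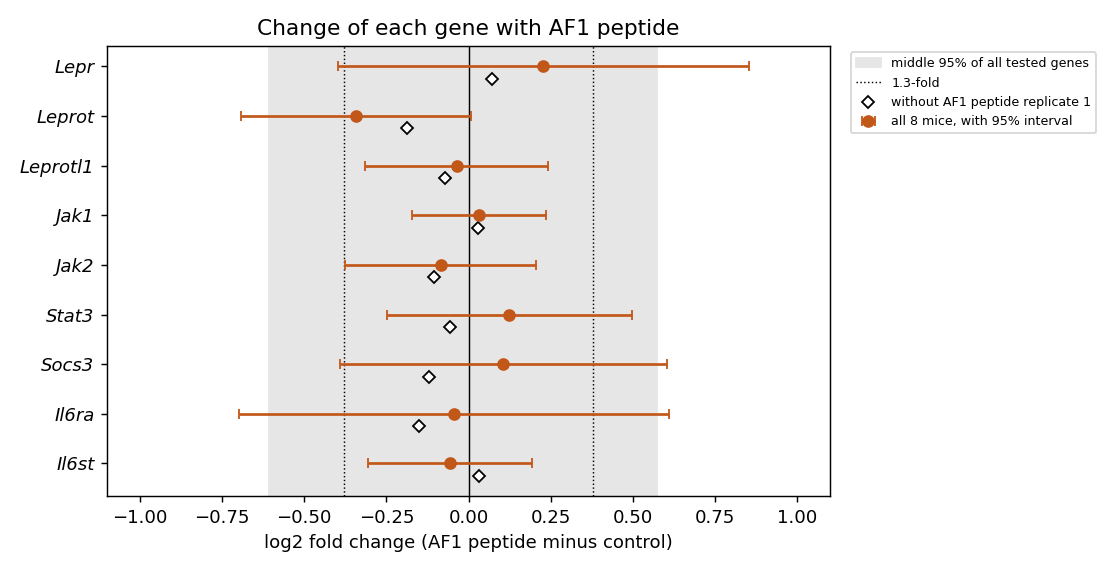
Log2 fold change (AF1 peptide minus control, horizontal axis) of each gene with its 95% interval from limma over all 8 mice (orange), and without AF1 peptide replicate 1 (open diamonds). The gray band holds the middle 95% of all tested genes (-0.61 to 0.57) and the dotted lines mark 1.3-fold. Leprot lies farthest from 0 at -0.34, and Stat3, Socs3 and Il6st change sign without AF1 peptide replicate 1.

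Jak1 and Jak2 encode the kinases that are bound to these receptors, JAK2 to the leptin receptor and both to gp130. Jak1 was at 1335, 1308, 1286 and 1449 normalized reads in control mice and 1383, 1300, 1534 and 1291 in AF1 peptide mice. The highest value was that of AF1 peptide replicate 3 and the lowest that of control replicate 3. The means of 1344 ± 72.3 and 1377 ± 112 (SD, n = 4 each) gave a log2 fold change of 0.03 (SE 0.09, limma adjusted p = 0.953), which turned to -0.06 when the libraries were rescaled to equal totals. Jak2 was at 199, 235, 266 and 270 in control mice and 237, 201, 240 and 233 in AF1 peptide mice. Every AF1 peptide value of Jak2 fell within the range of the control mice, and the log2 fold change was -0.08 (SE 0.13, limma adjusted p = 0.903). For both kinases the value was nearly the same without AF1 peptide replicate 1, at 0.03 for Jak1 and -0.10 for Jak2.

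Il6ra and Il6st encode the receptor for interleukin 6 and its signalling partner gp130. Il6ra had a low count of 47.8, 68.9, 44.3 and 114 in control mice and 77.5, 62.1, 47.0 and 65.2 in AF1 peptide mice, from 34 to 136 reads. Control replicate 4 was above every other mouse, and the coefficient of variation was 46.6% in control and 19.9% in AF1 peptide livers, where counting alone gives 12.1%. The log2 fold change of -0.04 (SE 0.30, limma adjusted p = 0.983) had an interval from 0.616-fold to 1.53-fold. Without control replicate 4 the log2 fold change was 0.23 (limma adjusted p = 0.916), and without AF1 peptide replicate 1 it was -0.15. Il6st was at 1760, 1768, 1781 and 1863 in control mice, a coefficient of variation of 2.65%, the lowest of the 9 genes in control livers. In AF1 peptide mice it was at 1426, 1737, 2056 and 1729, with replicate 1 below and replicate 3 above all control mice. The means of 1793 ± 47.6 and 1737 ± 257 (SD, n = 4 each) differed by a log2 fold change of -0.06 (SE 0.11, limma adjusted p = 0.926), which was 0.03 without AF1 peptide replicate 1.

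Stat3 encodes the transcription factor on which both receptors converge. Its normalized read count was 1179, 1190, 1138 and 1251 in control mice and 1882, 1333, 1054 and 1066 in AF1 peptide mice. Both extremes came from the AF1 peptide group, with replicates 1 and 2 above all control mice and replicates 3 and 4 below all of them. The value of AF1 peptide replicate 1 was 1.58 times the control mean. The means were 1190 ± 46.7 and 1334 ± 387 (SD, n = 4 each), and the log2 fold change was 0.12 (SE 0.17, limma adjusted p = 0.886). Without AF1 peptide replicate 1 the AF1 peptide mean was 1151 ± 158 (SD, n = 3) and the log2 fold change -0.05 (limma adjusted p = 0.882). The RNA does not tell how much STAT3 protein was phosphorylated. In GENCODE M21, exons of Stat3, Jak1 and Il6ra overlap exons of Stat5a, Raver2 and Gm42809 on the other strand, and whether counting used the strand is not given in the sources used here. At most 2.51% of the 50-base words of any of the 9 genes occur in transcripts of other genes.

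Socs3 is a direct target gene of STAT3, whose dimers bind to TTC and GAA spaced by 3 bases. The 250 bases before its start in RefSeq (GRCm38.p6, chr11:117969367-117969616, minus strand) are shown because this gene reads out the pathway. Capitals mark the only match to TTCNNNGAA, a motif that reads the same on both strands and here begins 154 bases before the start:
Socs3: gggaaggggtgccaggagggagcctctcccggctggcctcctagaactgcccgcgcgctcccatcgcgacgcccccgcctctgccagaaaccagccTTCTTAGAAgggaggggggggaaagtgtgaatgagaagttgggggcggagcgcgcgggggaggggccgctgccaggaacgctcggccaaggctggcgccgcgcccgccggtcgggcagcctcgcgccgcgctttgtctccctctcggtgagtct
The coding transcript of Socs3 in GENCODE M21 starts 180 bases farther downstream, and the bases between these starts were not searched for the motif. The same motif was found in this window in 1 of the 8 genes with a promoter in the table (12.5%, Leprotl1 having no entry) and in 2197 of 27025 genes in all (8.13%). A match describes the letters and not a bound site.

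The normalized read count of Socs3 was 218, 298, 273 and 212 in control mice and 427, 241, 250 and 197 in AF1 peptide mice. The mouse AF1 peptide replicate 1 was above all others at 1.71 times the control mean, and AF1 peptide replicate 4 was the lowest of all. The means of 250 ± 42.4 and 279 ± 102 (SD, n = 4 each) gave a log2 fold change of 0.11 (SE 0.22, limma adjusted p = 0.933). Without AF1 peptide replicate 1 the AF1 peptide mean was 229 ± 28.5 (SD, n = 3), and the log2 fold change was -0.12 (limma adjusted p = 0.815). The sign of the difference turned without this 1 mouse for both Stat3 and Socs3.

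**Figure D3:**
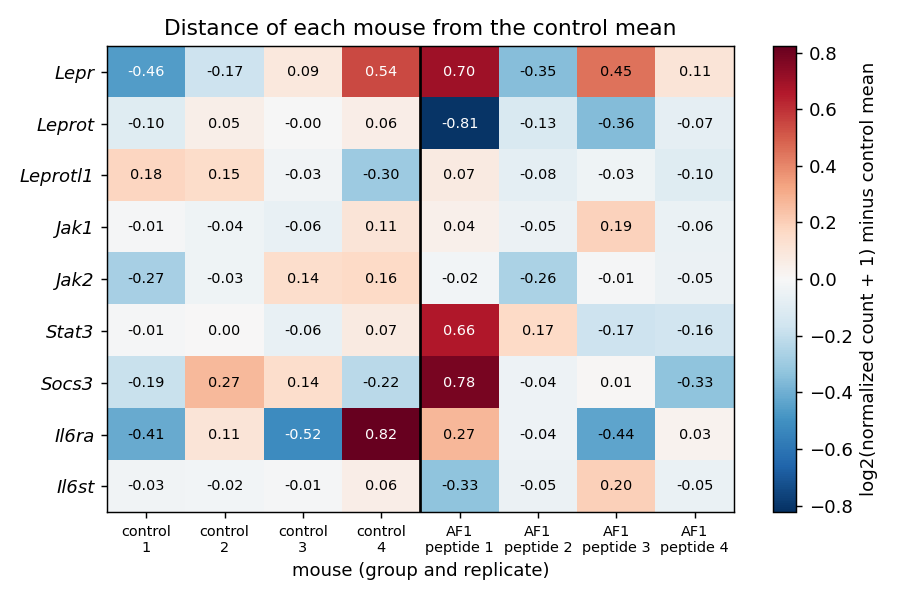
Difference of each mouse from the mean of the control mice in log2(normalized count + 1), with genes in rows and mice in columns (red above, blue below). AF1 peptide replicate 1 holds the strongest colors for Leprot (-0.81), Socs3 (0.78), Lepr (0.70) and Stat3 (0.66), while control replicate 4 stands out for Il6ra (0.82).

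Considered by mouse, AF1 peptide replicate 1 departed most from the rest. Its mean absolute distance from the median mouse was 0.3944 on the log2 scale over the 9 genes, against 0.2647 in control replicate 4 and 0.0755 to 0.1898 in the others. It was the highest or lowest mouse in 5 of the 9 genes (55.6%), close to its share of 49.3% in all tested genes. The standard deviation was larger among AF1 peptide mice than among control mice in 6 of the 9 genes (66.7%), and in 66.8% of all tested genes.

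Levels of different genes were compared as normalized counts per kilobase of the longest annotated transcript. From the highest mean to the lowest over the 8 mice, the order was Jak1 at 277 ± 18.2, Stat3 at 209 ± 44.2, Il6st at 203 ± 20.0, Leprot at 174 ± 30.6, Leprotl1 at 117 ± 12.3, Socs3 at 104 ± 28.9, Jak2 at 46.8 ± 5.1, Lepr at 9.5 ± 2.83 and Il6ra at 7.62 ± 2.63 (SD, n = 8). Neighbours in this order were separated without overlap of their ranges at only 2 steps. The lowest Socs3 value of 77.0 was above the highest Jak2 value of 53.6, and the lowest Jak2 value of 39.6 was above the highest Lepr value of 13.8. Both ligand-binding receptors, Lepr and Il6ra, were thus far below the shared chain Il6st and the kinases in these counts, and their own ranges overlapped. Exons of Il6ra, Jak1 and Stat3 overlap exons of other genes on the other strand. Whether counting used the strand is not given, and the part of such overlap in these levels was not tested. With the summed length of all exons in place of the longest transcript, Leprot took the second place, Stat3 the fourth, Il6ra the eighth and Lepr the last, and the same number of separated steps remained.

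**Figure D4:**
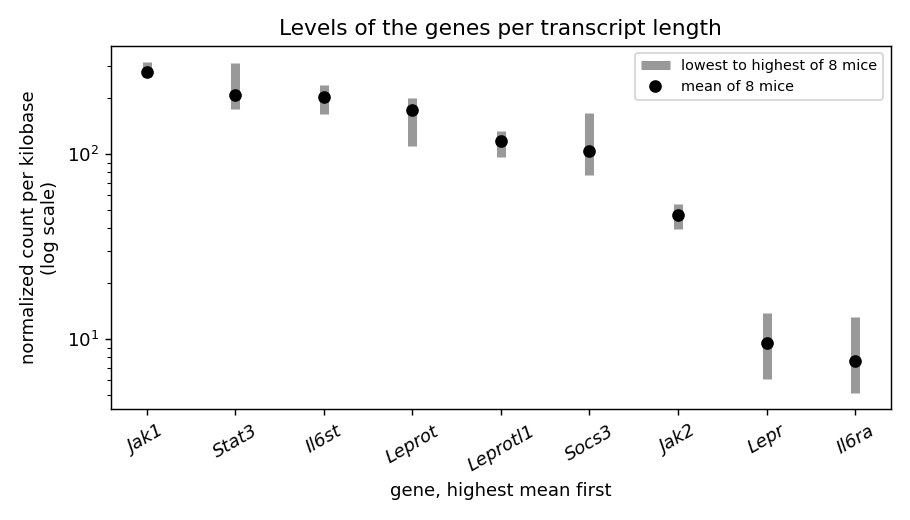
Normalized read count per kilobase of transcript (vertical axis, log scale) of the 9 genes, ordered by their mean over all 8 mice. Points are means and bars run from the lowest to the highest mouse, with gaps below Socs3 (77.0 at its lowest) and below Jak2 (39.6 at its lowest).

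The other genes of the pathway were taken from hand-written lists. Among the other JAKs and STATs, 0 of 8 genes were called, 3 had a log2 fold change above 0 and 5 below, and the median was -0.01. All tested genes had the same rounded median of -0.01, with 7704 above 0 and 8285 below. The kinase genes Jak3 (574 ± 60.8 to 693 ± 124, log2 fold change 0.26, limma adjusted p = 0.763) and Tyk2 (0.14, limma adjusted p = 0.793) and the interferon factor gene Stat2 (0.18, limma adjusted p = 0.825) had the lowest p values of that list. Jak3 was at 0.34 without AF1 peptide replicate 1, with an unadjusted p value of 0.0253 in limma and less than 1.3-fold.

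Inhibitors of the pathway were not called either (0 of 15 genes, 9 above 0 and 6 below, median 0.03). Pias4, a ligase that attaches SUMO to proteins and restrains STATs, was at 264 ± 16.9 in control and 320 ± 52.5 in AF1 peptide livers, a log2 fold change of 0.27 (limma adjusted p = 0.763), and 0.16 without AF1 peptide replicate 1, its highest mouse. Ptpn6, the phosphatase SHP-1, was at 635 ± 39.2 and 717 ± 33.8, a log2 fold change of 0.18 (limma adjusted p = 0.763). Socs6 had a log2 fold change of -0.19 (limma adjusted p = 0.781). The phosphatase gene Ptpn1, whose product takes phosphate off JAK2 and so limits leptin signalling, had a log2 fold change of -0.15 (limma adjusted p = 0.801).

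Adaptors that link JAK2 and the leptin receptor to other pathways gave 0 calls among 8 genes, with 4 above 0 and 4 below. Gab1, a docking protein, was at 230 ± 38.5 in control and 280 ± 8.81 in AF1 peptide livers (SD, n = 4 each). Its log2 fold change of 0.30 had an unadjusted p value of 0.0482 and an adjusted p value of 0.763 in limma, and it did not exceed 1.3-fold. The p value was above 0.05 in edgeR (0.0612) and in DESeq2 (0.0649). Without control replicate 4, Gab1 was called at 0.39, with an unadjusted p value of 0.0122 in limma (0.896 adjusted). Its unadjusted p value in limma was above 0.05 when any other mouse was left out. Ptpn11, the phosphatase SHP-2, was at 822, 874, 804 and 820 in control mice and 803, 679, 616 and 759 in AF1 peptide mice. It was the only gene of these lists without overlap of the groups, by a gap between 803 and 804, and its log2 fold change was -0.22 (limma adjusted p = 0.763). Without AF1 peptide replicate 1 it was -0.28, with an unadjusted p value of 0.0167 in limma and less than 1.3-fold. Sh2b1, a partner of JAK2, had a log2 fold change of 0.16 (limma adjusted p = 0.774), and 0.10 without that mouse. Irs2, the second insulin receptor substrate of the liver, was at 596 in AF1 peptide replicate 1 and at 176 to 220 in the other AF1 peptide mice, against 172 to 201 in control mice. Irs1 was at 474 in that same mouse and at 166 to 203 in the other AF1 peptide mice, all of them below the control range of 227 to 316. The log2 fold change of Irs1 was -0.17 over all mice and -0.51 without AF1 peptide replicate 1 (an unadjusted p value of 0.0044 in limma, 0.452 adjusted).

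The list of receptors and ligands that share gp130 also held Lep, the gene of leptin, whose own receptor is that of Lepr. Of the 16 genes in the list, 8 were tested and 0 were called, with 4 above 0 and 4 below. Lif, a cytokine of the interleukin 6 family, was at 0.93 and 3.65 in AF1 peptide replicates 1 and 2 and at 9.06 to 19.7 in the other 6 mice, a log2 fold change of -1.11 (limma adjusted p = 0.777). A count of 1 read stood behind the lowest of these values. The log2 fold change of Lif was -0.46 without AF1 peptide replicate 1, -0.54 in edgeR and -0.60 in DESeq2. Without AF1 peptide replicate 3 it was -1.58, with an unadjusted p value of 0.0453 in limma (0.774 adjusted). Osmr, the oncostatin M receptor, had a log2 fold change of 0.21 (limma adjusted p = 0.826), and Ctf1, which encodes cardiotrophin 1, of -0.27 (limma adjusted p = 0.834). The same values were 0.35 and -0.42 without AF1 peptide replicate 1. Ligand genes such as Il11, Osm, Cntf and Il27 were under the minimum level, and Il6 and Lep were not analysed here.

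**Figure D5:**
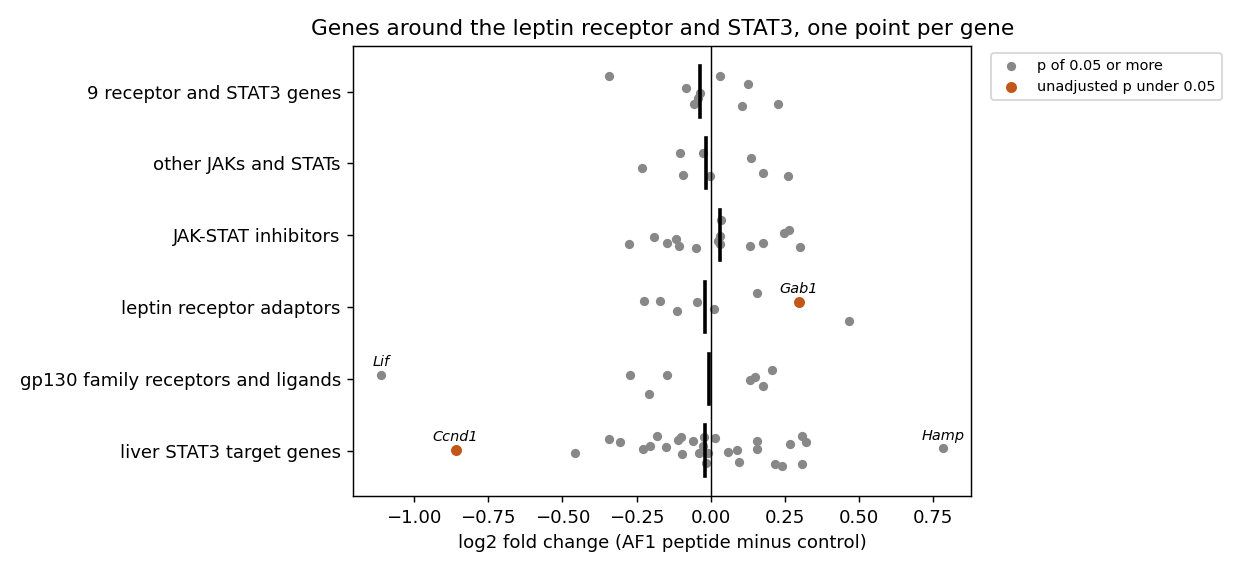
Log2 fold change (AF1 peptide minus control, horizontal axis) of the tested genes of each list, with 1 point per gene, shifted vertically at random for visibility, and a bar at the median. Orange points are the genes with an unadjusted limma p value under 0.05, Gab1 at 0.30 and Ccnd1 at -0.86, and all medians lie between -0.04 and 0.03.

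Textbook target genes of STAT3 in liver were measured in greater number, with 30 of 31 tested (A2m was under the minimum). Of these, 0 were called higher and 1 was called lower, 13 had a log2 fold change above 0 and 17 below, and the median was -0.02. The called gene was Ccnd1, which encodes the cell cycle protein cyclin D1. It was at 213, 349, 250 and 351 in control mice and 105, 104, 217 and 252 in AF1 peptide mice, where replicates 1 and 2 were below all the others and replicates 3 and 4 lay within the control range. The log2 fold change was -0.86 (SE 0.31), with an unadjusted p value of 0.0178 and an adjusted p value of 0.763 in limma, and -0.67 without AF1 peptide replicate 1. The unadjusted p value rose above 0.05 when each gene's own variance was used (0.0647) and when control replicate 2 (0.0511), control replicate 4 (0.0532) or AF1 peptide replicate 2 (0.057) was left out. Hamp, which encodes the iron hormone hepcidin, varied widely, at 10170 to 26874 in control mice, 58027 in AF1 peptide replicate 1 and 12814 to 30513 in the other AF1 peptide mice. Its log2 fold change of 0.78 had a limma adjusted p value of 0.767, and it was 0.42 without AF1 peptide replicate 1. It was 1.04 without control replicate 1 and 1.15 without AF1 peptide replicate 4, with unadjusted p values of 0.0497 and 0.0175 in limma.

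AF1 peptide replicate 1 was also the extreme mouse among the target genes. It was the highest of all mice in 14 and the lowest in 4 of the 30 genes (60.0%), against 49.3% of all tested genes. Fibrinogen genes were among the 14, with Fgg at 26717 in AF1 peptide replicate 1, 11206 to 14606 in the other AF1 peptide mice and 14148 to 22089 in control mice. The 4 genes lowest in that mouse were Orm2, Saa3, Bcl3 and Timp1. The acute phase genes Saa1 and Saa2 were highest in control replicate 2. Of the lists, TTCNNNGAA was found in the same promoter window in 5 of 23 target genes (21.7%: Fga, Fgb, Hamp, Itih4 and Steap4), in 1 of 8 adaptors (12.5%: Gab1), and in 0 of 7 other JAKs and STATs, 0 of 8 inhibitors and 0 of 11 receptors and ligands with a promoter in the table. Without AF1 peptide replicate 1, 6 genes of these lists were called by limma: Cntfr higher (log2 fold change 0.41) and Irs1 (-0.51), Fga (-0.41), Fgg (-0.45), Steap4 (-0.52) and Ccnd1 (-0.67) lower. Their adjusted p values were 0.452 to 0.495 in limma, and over all mice only Ccnd1 of them was called, and in that fit 2.86% of all tested genes were called higher and 3.04% lower.

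Lepr and Socs3 were also set beside the genes whose values over the 8 mice resembled theirs most, as the root mean square difference of centred log2 values among 12442 genes with a mean of at least 50. The genes nearest to Lepr were Zc3h8 at 0.149, Nipal1 at 0.155 and Dync2h1 at 0.177, where the standard deviation of Lepr itself was 0.397. The genes nearest to Socs3 were Pcbp4 at 0.128, Tnfrsf1b at 0.131 and Anapc11 at 0.136, where Socs3 had 0.332. All 6 of these genes were highest in AF1 peptide replicate 1, like Lepr and Socs3, which follows from the way they were picked. The likeness is given as a description over 8 mice that share these libraries, without a test.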

How the data were processed

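Liver RNA of 8 male db/db mice (4 control and 4 AF1 peptide) was made into stranded mRNA libraries after TRIzol extraction. Reads were trimmed with Trim Galore 0.6.7, aligned with HISAT2 and sorted with SAMtools 1.17, with mm39 as the build in the submitters' processing notes, and the study's methods name GenomicAlignments for counting. The use of strand and the annotation are not given in the sources used here. The values deposited by the authors are normalized read counts, which is a signal equal to whole reads over 1 factor per library. Whole reads were recovered for 100% of the 172256 values (within 0.01). No column was left out.

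The log2(normalized count + 1) was fitted with limma 3.58.1 in R 4.3.3, with variances moderated along an intensity trend. Tested were 15989 genes, those whose mean reached 10, and p values were adjusted by the Benjamini-Hochberg method over all of them. The added 1 shrinks the fold changes of low genes, but they need not be smaller than those of the count tests. Lif was at -1.11 in limma and at -0.54 in edgeR. A call is an unadjusted p value under 0.05 with more than 1.3-fold change. Other settings were tried 1 at a time: another pseudocount (0.5 or 5), dropping the filter or asking for 10 in all mice, TMM factors, equal totals, no trend, each gene's own variance, a replicate block, no fold threshold, each mouse left out, and count tests on the reads with edgeR 4.0.16 or DESeq2 1.42.0. The limma, edgeR and DESeq2 steps were tested on simulated data. Groups and replicate numbers came from the sample labels, which name biological replicates. Precision is set by 4 mice per group, and the coefficients of variation given for counting cover counting error only.

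The 9 genes and all lists were chosen with earlier results of these data known. Named from each list were the called genes or else the 3 with the smallest p value, and for Lepr and Socs3 the 3 most alike genes. Ptpn1, Irs1, Irs2, Hamp, Fga, Fgg, Steap4, Cntfr, Cps1, Adgre1, Dcn and the genes with a promoter motif were named after their values or sequences were seen. So were Orm2, Saa1, Saa2, Saa3, Bcl3 and Timp1. Lengths and shared 50-base words came from GENCODE M21, and promoters from RefSeq (GRCm38.p6). That build is not mm39, so no coordinates are given for counted genes.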

Additional observations from a re-analysis of the deposited data

Results flagged for a closer look

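In 86 groups of 4 mice, those of the genes given with values and of the ratio of Lepr to Leprot, a single mouse apart from the other 3 was looked for with Dixon's test at its 95% limit. It was found in 6 groups. For independent groups picked without sight of their values, chance gives about 1 in 20, or 4.3 groups. These groups share the same libraries, and some genes were picked by their values or after they were seen. The counts therefore cannot be compared. Among the 9 genes it was Jak2 in AF1 peptide livers, where replicate 2 was low at 201 against 233 to 240 in the others, a gap of 0.833 of the range of the group. This was the library with the fewest reads (23031880), and the part of depth in the value was not tested. In 4 of the 6 groups the mouse was AF1 peptide replicate 1, high in Irs1 (474, a gap of 0.879), Irs2 (596, a gap of 0.896), Cps1 (34576, a gap of 0.867) and Tnfrsf1b (988, a gap of 0.967). Zc3h8 was high in control replicate 4 (172, a gap of 0.897). For Stat3, Socs3 and Leprot the gap of AF1 peptide replicate 1 stayed under the limit.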

How the results depend on the processing

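Of 679 values under alternatives, 599 kept their direction and side of the threshold (for counts of genes, stayed within 1.5 times the main count), and 10 turned direction. Equal totals gave Leprot -0.43 (limma adjusted p = 0.867) and Jak1 -0.059, 1 call among the 9 genes in place of 0, 2 among the pathway lists in place of 1, and 122 genes higher and 604 lower in place of 286 and 304. In a replicate block fit, Leprot kept -0.34 and passed the unadjusted threshold (limma adjusted p = 0.618) without exceeding 1.3-fold, and all genes gave 341 higher and 392 lower. The numbers share no stated animal or litter, and the deviations of mice with the same number correlated at -0.064 to 0.235, so they were not taken as pairs. No filter gave 435 higher and 459 lower, no fold threshold 506 and 484 with 2 pathway genes, and each gene's own variance 197 lower with 0 pathway genes.

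With 1 mouse left out, the log2 fold change ran from 0.070 to 0.42 for Lepr, -0.43 to -0.19 for Leprot, -0.14 to 0.024 for Leprotl1, -0.020 to 0.069 for Jak1, -0.17 to -0.025 for Jak2, -0.055 to 0.22 for Stat3, -0.12 to 0.25 for Socs3, -0.22 to 0.23 for Il6ra and -0.14 to 0.033 for Il6st. The sign turned without AF1 peptide replicate 1 for Stat3 (-0.055), Socs3 (-0.12) and Il6st (0.033), without AF1 peptide replicate 3 for Jak1 (-0.020) and Il6ra (0.087), without control replicate 4 for Il6ra (0.23), and without control replicate 1 (0.024) or 2 (0.014) for Leprotl1. Outside the 9 genes Cntfr ran from -0.020 (without AF1 peptide replicate 2) to 0.41 (without AF1 peptide replicate 1). These fits gave 0 to 1 calls among the 9 genes (Leprot, without AF1 peptide replicate 2 or 4), 1 to 6 among the lists (6 without AF1 peptide replicate 1), and 201 to 457 genes higher and 172 to 486 lower, with the fewest without control replicate 2 and the most without AF1 peptide replicate 1. The causes were not tested. Lepr and Il6ra had as few as 20 and 34 reads in a mouse, and the smallest difference that could be detected was not worked out.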

Other observations

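Among the markers of cell types not described above, those of cholangiocytes summed to 803 normalized reads in AF1 peptide replicate 1, 1246 to 2291 in the other AF1 peptide mice and 1193 to 1799 in control mice. B cell markers summed to 42.9 in AF1 peptide replicate 1, 70.7 to 155 in the other AF1 peptide mice and 99.5 to 130 in control mice, and neutrophil markers to 59.7, 149 to 273 and 148 to 233. T cell markers were at 62.5 in AF1 peptide replicate 1, within the range of 36.4 to 63.6 of control mice. Red blood cell genes, mainly of globins, summed to 27114 in AF1 peptide replicate 1, 49148 to 51930 in the other AF1 peptide mice and 34152 to 123402 in control mice. The adipocyte markers in the table, 2 of 5, summed to 11.2 to 60.3 in AF1 peptide and 20.1 to 104 in control mice. Over all mice, 0 markers were called higher. Called lower were Adgre1 (1 of 8 markers of Kupffer cells and macrophages) at -0.66 and Dcn (1 of 8 of stellate cells) at -0.42 (limma adjusted p = 0.763 for both). Among all tested genes, 1.79% were called higher and 1.9% lower. Adgre1 was no longer called without AF1 peptide replicate 1, its lowest mouse (-0.45), control replicate 2 (-0.56) or control replicate 4 (-0.54), nor with its own variance. Dcn was no longer called without AF1 peptide replicate 2 (-0.25), control replicate 1 (-0.40), 2 (-0.35) or 4 (-0.40), nor with its own variance, no trend or a replicate block, while without AF1 peptide replicate 1 it was at -0.43.

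The 7 listed genes with TTCNNNGAA in their promoter window included 6 that were highest in AF1 peptide replicate 1 (85.7%), which was noticed after the values were seen and was not tested. Among all tested genes with a promoter in the table, that mouse was highest in 219 of 864 with the motif (25.3%) and in 2833 of 10799 without it (26.2%).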
